A study of Bos taurus with 60 samples.

Results

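The miR-148 and miR-152 family was described in bovine liver through its members bta-miR-148a, bta-miR-148b and bta-miR-152, which are 3 of the 1030 known bovine miRNAs counted. Members were taken by name and not by a measured value, although earlier results of these data were known when they were chosen. Each of the 3 had 1 precursor in the deposited counts. The names bta-miR-148c and bta-miR-148d are not members: the former had 0 counts in all 60 steers and the latter at most 2 counts in any steer, in 6 steers. Because 0 counts in a library allow up to 3, both lie at or under the detection floor.

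A miRNA pairs through its seed, the bases from position 2 to 8, with sites in messenger RNAs and lowers the output of those messages. miRNAs with the same seed can pair with the same sites, so members of a family may share targets. In mammalian liver, miR-148a is a major hepatocyte miRNA that is known to act on ABCA1, a cholesterol exporter. miR-148a and miR-152 are known to act on DNMT1, a DNA methyltransferase.

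The mature sequences, as the study lists them, are shown because the shared seed defines the family and the other bases tell the members apart in the counts. They are written 5′ to 3′ with the seed in capitals.
bta-miR-148a: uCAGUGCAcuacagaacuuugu
bta-miR-148b: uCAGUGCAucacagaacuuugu
bta-miR-152: uCAGUGCAugacagaacuuggg

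All 3 are 22 bases long, and of the 588 listed bovine miRNAs with a sequence only these 3 carried this seed. Counting positions from the 5′ end, bta-miR-148b differed from bta-miR-148a at 2 bases, C9U and U10C. bta-miR-152 differed from bta-miR-148a at 4 bases, C9U, U10G, U20G and U22G, and from bta-miR-148b at 3 bases, C10G, U20G and U22G. Compared as full sequences, no member lay within 1 mismatch of another member or of any other listed miRNA. Before base 20, bta-miR-148b and bta-miR-152 differ only at C10G, so shorter reads of these 2 can lie within 1 mismatch. How many reads of bta-miR-148a with errors, or shortened reads of any member, were counted for the other members was not tested. bta-miR-130a, bta-miR-130b, bta-miR-301a and bta-miR-301b carried the same 7 bases 1 position earlier, at bases 1 to 7.

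In the RefSeq gene table of the ARS-UCD2.0 assembly, which is not the UMD3.1 build of the counts and is used here for names and neighbours only, the 3 genes lie on different chromosomes. MIR148A is on chromosome 4 and overlaps MIR148D but no protein-coding gene. MIR148B is on chromosome 5 within the span of COPZ1, and MIR152 is on chromosome 19 within the span of COPZ2, where it overlaps MIR148C. COPZ1 and COPZ2 encode paralogous subunits of the coatomer, the vesicle coat of the Golgi. Whether the 2 miRNAs lie in introns was not determined.

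Small RNA was sequenced from the liver of 60 castrated beef steers on a finishing diet of barley grain, barley silage and rumensin pellets, with 1 library per steer. There were 20 Angus, 20 Charolais and 20 Kinsella Composite (KC) steers, KC being a crossbred population. In each breed the labels give 6 steers as low-RFI, 6 as high-RFI and no group for the other 8. Residual feed intake (RFI) is the feed eaten beyond what growth and body weight predict, so a low-RFI steer is the more efficient. Per the study's methods, the 12 steers of a breed were picked for extreme RFI and also for uniform miRNA expression, which can narrow the spread within these groups. Breeds were killed at different mean ages, so breed and age cannot be told apart. Steers of a breed share sires. The labels name 7 sires for Angus, 5 for Charolais and 10 for KC, with the sire of 1 KC steer unknown.

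Library totals ran from 1930859 to 5703119 counts in Angus, from 2237959 to 6019099 in Charolais and from 3637007 to 6759381 in KC. A total is the sum over all known miRNAs, each averaged over its precursors, so it is not every read of the library. Levels are given in CPM, which puts each count on a common library size, after TMM scaling, which corrects each library for its composition. The hepatocyte list (bta-miR-122, bta-miR-192, bta-miR-194 and bta-miR-885) was counted in every steer and summed to a median of 242070 CPM in Angus, 255940 in Charolais and 246650 in KC. Of the muscle list, bta-miR-206 was at 0 in 57 of 60 steers. The other members were counted in every steer, bta-miR-133a at 44 to 281 counts and bta-miR-1 at 1 to 43. The muscle sum had a median of 35.3 CPM in Angus, 34.1 in Charolais and 40.0 in KC. A pair of libraries stood apart by their scaling factor. The factor was 0.677 in steer 3 of the Angus steers without an RFI group and 0.684 in steer 7 of the Charolais steers without one, while the third lowest was 0.795. The Angus steer had the lowest share of bta-miR-152 of all 60, and the Charolais steer the lowest share of bta-miR-148a. Neither steer enters an RFI comparison, and breed results are given with and without both.

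The 3 members differed widely in abundance. bta-miR-148a ranked 3 among all miRNAs by mean count in every breed. Its share of the library total was 13.1% ± 1.09 for Angus, 12.3% ± 1.22 for Charolais and 12.3% ± 0.759 for KC (mean and SD over the 20 steers of a breed). bta-miR-148b ranked 65 in Angus and Charolais and 66 in KC. It held 0.0426% ± 0.00452, 0.0441% ± 0.00637 and 0.0443% ± 0.00575 of the library total in the same order of breeds (SD, n = 20 each). bta-miR-152 ranked 88 in Angus, 82 in Charolais and 86 in KC, with 0.0175% ± 0.00358, 0.0235% ± 0.00519 and 0.0216% ± 0.00347 (SD, n = 20 each). The order bta-miR-148a, bta-miR-148b, bta-miR-152 held in 60 of 60 steers. bta-miR-148a made up 99.3% to 99.7% of the reads with the family seed in any steer, so the summed level of the family is close to that of bta-miR-148a alone.

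Counts behind these values ranged from 207678 to 780774 per steer for bta-miR-148a, from 792 to 3129 for bta-miR-148b and from 299 to 1768 for bta-miR-152. In the library with the fewest bta-miR-152 reads, 299 counts correspond to 126 CPM before TMM scaling, with a 95% exact (Clopper-Pearson) interval of 112 to 141. Such intervals cover counting error only, since amplified reads are not independent molecules.

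**Figure D1:**
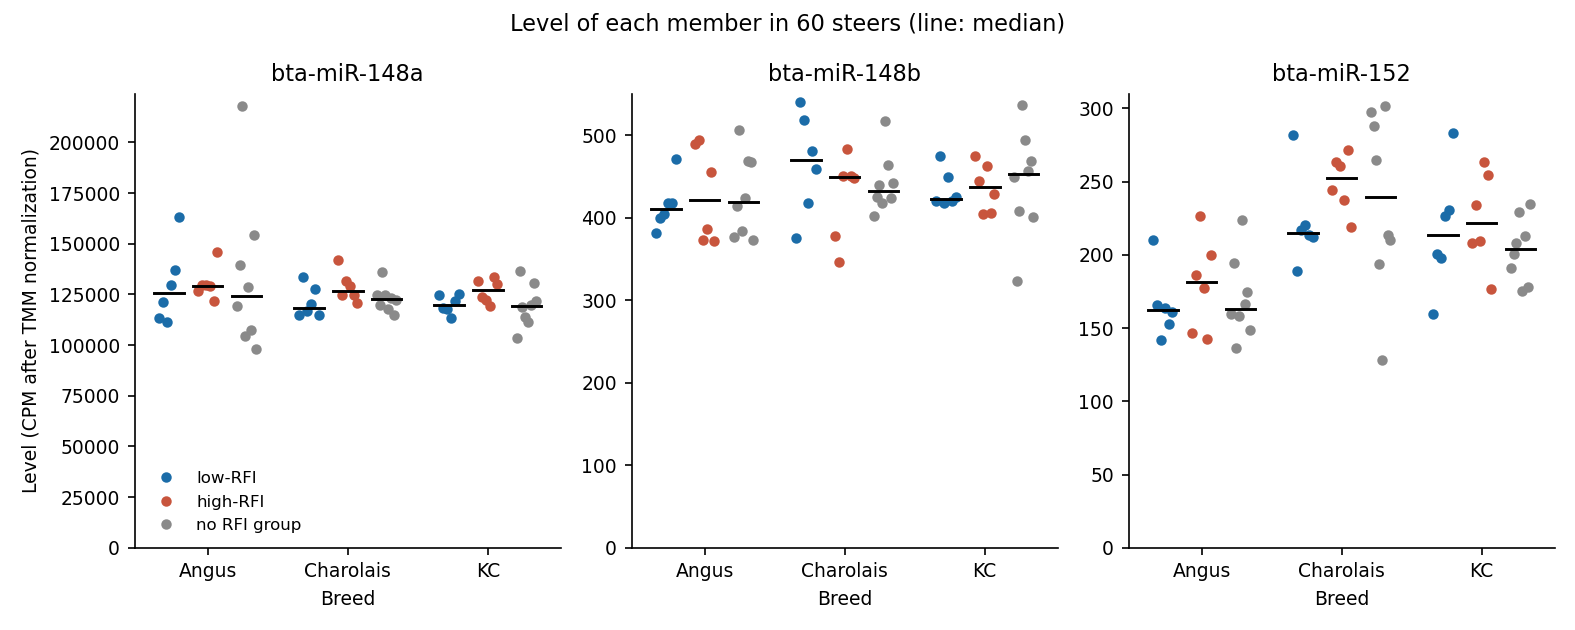
Level in CPM after TMM scaling (vertical axes, starting at 0) of bta-miR-148a, bta-miR-148b and bta-miR-152 in each of 60 steers, by breed (horizontal axis) and RFI group (colour), with a black line at the median of each group. The RFI groups overlap in every breed, while the bta-miR-152 points of Angus lie mostly under those of the other breeds, with medians of 165 CPM in Angus, 229 in Charolais and 209 in KC.

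The first comparison asks whether hepatic levels of the family differ between efficient and inefficient steers of the same breed. bta-miR-148a, the abundant member, was at similar levels in low-RFI and high-RFI steers. In Angus its lowest, median and highest levels were 111360, 125670 and 163440 CPM in low-RFI steers and 122000, 129250 and 145900 CPM in high-RFI steers. Charolais low-RFI steers had 114760, 118440 and 133700 CPM, and high-RFI steers 120570, 126930 and 141760 CPM. In KC the values were 113540, 119890 and 125180 CPM for low-RFI and 119310, 126970 and 133660 CPM for high-RFI steers. The groups overlapped in each breed, and the low-RFI median lay under the high-RFI median in all 3 breeds. Fitted log2 fold changes, low-RFI against high-RFI, were 0.02 (SE 0.081) for Angus, where the fit and the medians differ in sign, -0.08 (SE 0.068) for Charolais and -0.05 (SE 0.040) for KC, with adjusted p-values of 0.983, 0.975 and 0.971 by edgeR. Its 95% interval in KC ran from -0.13 to 0.04, the narrowest of the family.

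bta-miR-148b showed no common direction. In Angus the lowest, median and highest levels were 382, 411 and 471 CPM in low-RFI and 371, 421 and 494 CPM in high-RFI steers. Charolais low-RFI steers had 375, 470 and 539 CPM and high-RFI steers 346, 449 and 483 CPM. KC low-RFI steers had 417, 423 and 475 CPM and high-RFI steers 405, 437 and 475 CPM. The groups overlapped in each breed. Log2 fold changes were -0.01 (SE 0.092), 0.14 (SE 0.122) and 0.02 (SE 0.068) in Angus, Charolais and KC, with adjusted p-values of 0.983, 0.975 and 0.986 by edgeR.

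bta-miR-152, the least abundant member, overlapped between RFI groups as well. In Angus, levels ran from 142 through a median of 162 to 210 CPM in low-RFI and from 143 through 182 to 227 CPM in high-RFI steers. Charolais low-RFI steers ran from 189 through 215 to 282 CPM, and high-RFI steers from 219 through 252 to 271 CPM. In KC the range was 159 to 283 CPM with a median of 214 in low-RFI steers, and 177 to 264 CPM with a median of 222 in high-RFI steers. The low-RFI median was under the high-RFI median in each breed. In Charolais, 5 of the 6 low-RFI steers lay outside the range of the high-RFI steers, 4 below it and 1 above it. Log2 fold changes were -0.08 (SE 0.125), -0.16 (SE 0.116) and -0.02 (SE 0.129) for Angus, Charolais and KC, with adjusted p-values of 0.957, 0.975 and 0.986 by edgeR.

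None of the 3 members was called between RFI groups in any breed at an unadjusted p under 0.05 with a fold change above 1.5, and with all 12 steers of a breed and no other term 0 of 3 had an unadjusted p under 0.05 by edgeR or by DESeq2. In KC, bta-miR-148a reached an unadjusted p of 0.0437 by edgeR without high-RFI steer 4 (log2 fold change -0.099) and 0.0372 without low-RFI steer 6 (-0.097), with adjusted p-values of 0.874 and 0.995. By the same rule 2.68% of the 373 miRNAs tested in Angus, 2.41% of the 373 in Charolais and 1.82% of the 385 in KC were called. The calls over all miRNAs were themselves few, and 0 had an adjusted p under 0.05 in any of the 3 breeds. Across the 9 member and breed pairs the 95% intervals reached no further than a log2 fold change of -0.40 on one side, for bta-miR-152 in Charolais, and 0.39 on the other, for bta-miR-148b in Charolais. These bounds correspond to ratios of 0.756 and 1.31, so each interval excludes a 1.5-fold difference in the fit with breeds taken separately and no term for sire. It holds for the 12 steers picked in each breed, and no interval is given for the fit with sire.

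Exact permutation tests of the mean log2 CPM, over all relabelings of the 12 steers of a breed, passed for 0 of the 9 pairs after Benjamini-Hochberg adjustment over them. The smallest unadjusted exact p was 0.0584, for bta-miR-148a in KC, where the log2 level of low-RFI minus high-RFI steers was -0.08 (95% interval -0.16 to 0.00030), and its adjusted value was 0.357. Sire could be separated from RFI group only in part. Steers of both RFI groups came from the same sire for 2 sires in Angus, 1 in Charolais and 1 in KC. These sires had 2 low-RFI and 3 high-RFI steers in Angus, 1 and 4 in Charolais, and 1 and 3 in KC. In Charolais the 1 low-RFI steer was the one highest in bta-miR-152, at 282 CPM. In Angus they included the low-RFI steer highest in bta-miR-148a, at 163440 CPM. With sire as a block, estimates rest on these few steers. The direction for bta-miR-152 then turned in every breed, to log2 fold changes of 0.07, 0.19 and 0.10, and it was still not called. For bta-miR-148a in Angus the same block moved the log2 fold change from 0.02 to 0.25, outside the interval without the block, with an unadjusted p of 0.0214 and an adjusted p of 0.667 by edgeR. It was not called, as the fold change stayed under 1.5.

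With the 36 steers in 1 fit and breed as a term, the RFI difference was -0.06 (SE 0.038, adjusted p = 0.828) for bta-miR-148a, 0.02 (SE 0.055, adjusted p = 0.983) for bta-miR-148b and -0.11 (SE 0.068, adjusted p = 0.828) for bta-miR-152 by edgeR. The 95% interval for bta-miR-152 was -0.25 to 0.02. In that fit 0.235% of 426 miRNAs were called at an adjusted p under 0.05, and none was a member. The interaction of RFI group with breed was called for 0% of the 426, with 20 at an unadjusted p under 0.05 and 1 called by DESeq2. The members had interaction p-values of 0.588, 0.512 and 0.722 before adjustment and 0.992 after it, by edgeR. No RFI effect that differed between breeds was thus called for the family, with 6 steers per RFI group and breed and no interval for the interaction.

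The second comparison sets the breeds side by side over all 60 steers. bta-miR-152 was lower in Angus than in Charolais and KC, while bta-miR-148a and bta-miR-148b were not called between any pair of breeds. In the 2 df test of any breed difference, 18.1% of 443 miRNAs were called at an adjusted p under 0.05, and of the members 1 of 3 was called, bta-miR-152 with an adjusted p of 9.9e-06. bta-miR-148a had 0.266 and bta-miR-148b 0.576 in the same edgeR test. The counts of KC steers list 52 pairs of miRNA and precursor that those of the other breeds lack, 0 of them of a member. Without these pairs, 62 of 440 miRNAs (14.1%) were called for any breed. The shares given here for comparisons that include KC were taken with these pairs.

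bta-miR-152 ran from 136 CPM through a median of 165 to 227 CPM in Angus, from 128 through 229 to 301 CPM in Charolais and from 159 through 209 to 283 CPM in KC. Means were 172 ± 27.0, 236 ± 43.0 and 214 ± 31.4 CPM (SD, n = 20 each). The breeds overlapped, but 20 of 20 Angus steers lay under the Charolais median and 17 of 20 under the KC median. In the other direction, 10 Charolais and 8 KC steers lay above the highest Angus steer. The lowest of all 60 was a Charolais steer.

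Charolais exceeded Angus in bta-miR-152 by a log2 fold change of 0.46 (SE 0.075, 95% interval 0.31 to 0.61, adjusted p = 3.2e-05 by edgeR), a ratio of 1.37. This was the smallest p of the 443 miRNAs, in a contrast where 1.35% were called, although 46 miRNAs had a larger fold change. KC exceeded Angus by 0.31 (SE 0.075, 95% interval 0.16 to 0.46, adjusted p = 0.0022 by edgeR), a ratio of 1.24, in a contrast with 12.4% called. KC and Charolais, neighbours in the order of levels, differed by -0.15 (95% interval -0.29 to 0.0022) with an adjusted p of 0.185 by edgeR, where 17.2% of the miRNAs were called. Without the pair of libraries that stood apart, the differences from Angus were 0.46 and 0.30. The difference between Charolais and Angus was 0.48 in the 36 steers with an RFI group and 0.47 in the 24 without one. In those 24 the adjusted p was 0.418, and 0.355 for KC against Angus at a log2 fold change of 0.23, so that neither was called by edgeR with 8 steers a breed.

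**Figure D2:**
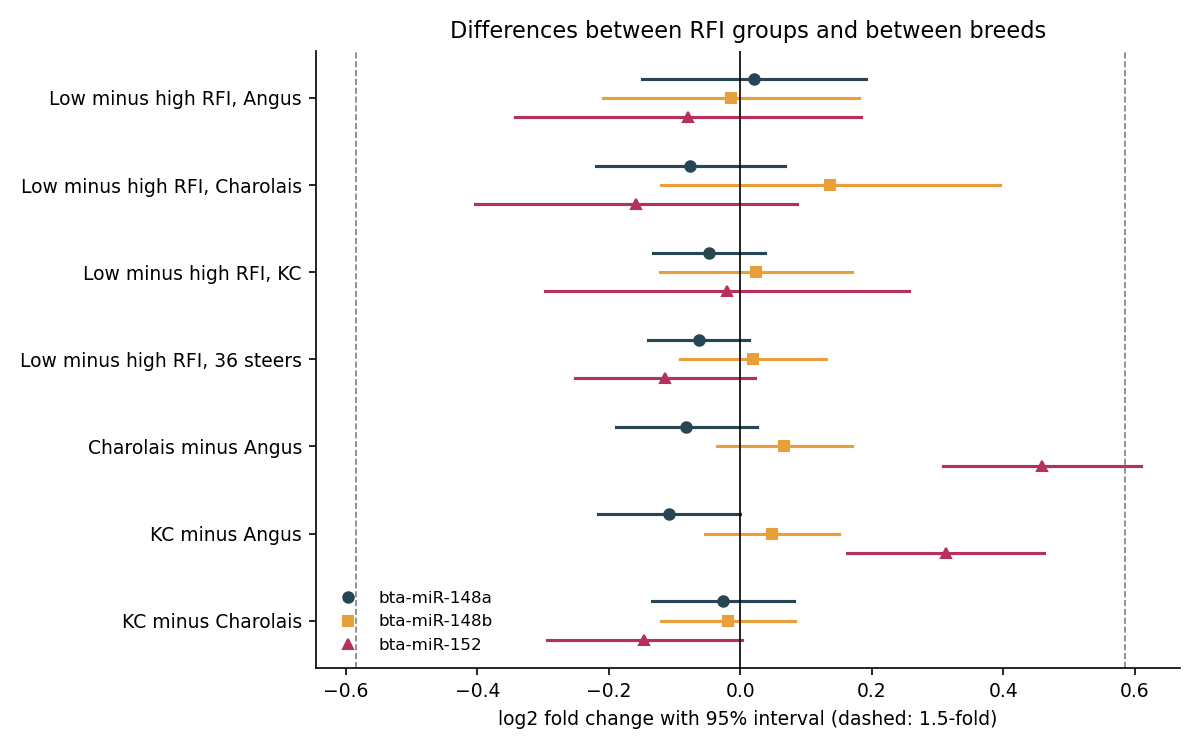
Fitted log2 fold change (horizontal axis) with its 95% interval for each member in 4 comparisons of RFI groups and 3 of breeds (vertical axis), with dashed lines at 1.5-fold. All RFI intervals span 0, and the intervals of bta-miR-152 for Charolais minus Angus (0.31 to 0.61) and KC minus Angus (0.16 to 0.46) lie above 0.

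bta-miR-148a ran from 97873 through a median of 128830 to 218120 CPM in Angus, from 114760 through 123820 to 141760 CPM in Charolais and from 103510 through 121570 to 136360 CPM in KC. The highest value belongs to the Angus library of lowest scaling factor, in which bta-miR-148a held 14.8% of the unscaled counts. No pair of breeds was called. The log2 difference was -0.08 (95% interval -0.19 to 0.03, adjusted p = 0.412 by edgeR) for Charolais minus Angus and -0.11 (95% interval -0.22 to -0.0011, unadjusted p = 0.0478, adjusted p = 0.184 by edgeR) for KC minus Angus, so the latter passed only before adjustment. Without the pair of libraries that stood apart they were -0.01 and -0.06.

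bta-miR-148b was not called in any breed contrast. It ran from 371 through a median of 416 to 506 CPM in Angus, from 346 through 445 to 539 CPM in Charolais and from 323 through 437 to 537 CPM in KC. The Angus range lay inside the ranges of both other breeds. Differences were 0.07 (95% interval -0.04 to 0.17, adjusted p = 0.493) for Charolais minus Angus, 0.05 (95% interval -0.05 to 0.15, adjusted p = 0.617) for KC minus Angus and -0.02 (95% interval -0.12 to 0.08, adjusted p = 0.858) for KC minus Charolais by edgeR. Without the pair of libraries that stood apart, these differences were 0.10, 0.06 and -0.03, and bta-miR-148b was still not called.

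A ratio of 2 members within a library does not depend on scaling between libraries. The ratio of bta-miR-148a to bta-miR-152 ran from 541 through a median of 730 to 1600 in Angus, from 407 through 540 to 922 in Charolais and from 442 through 566 to 782 in KC. On the log2 scale it was lower in Charolais than in Angus by -0.51 (95% interval -0.71 to -0.31), a ratio of 0.701, and lower in KC than in Angus by -0.40, a ratio of 0.755, with an adjusted permutation p of 0.00036 for each. The ratio of bta-miR-148b to bta-miR-152 had a median of 2.53 for Angus, 1.94 for Charolais and 2.04 for KC. It was lower than in Angus by -0.38 in Charolais (adjusted permutation p = 0.00996) and by -0.27 in KC (adjusted permutation p = 0.0252). Both ratios to bta-miR-152 were highest in Angus, and all 4 of these differences also passed without the pair of libraries that stood apart. These tests treat steers as independent, although steers of a breed share sires, so their p-values can be too small. The ratios were not tested with 1 mean per sire.

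The ratio of bta-miR-148a to bta-miR-148b, from 213 to 431 over the 60 steers, did not pass between breeds. Its medians were 308 in Angus, 277 in Charolais and 281 in KC, with an adjusted permutation p of 0.162 for Charolais and for KC against Angus. Of the 18 tests of ratios, 4 passed after Benjamini-Hochberg adjustment, all of them between Angus and another breed. None of the 9 exact permutation tests between RFI groups passed. The largest of these differences was 0.30 on the log2 scale for bta-miR-148b to bta-miR-152 in Charolais (95% interval -0.11 to 0.70, adjusted exact p = 0.297).

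**Figure D3:**
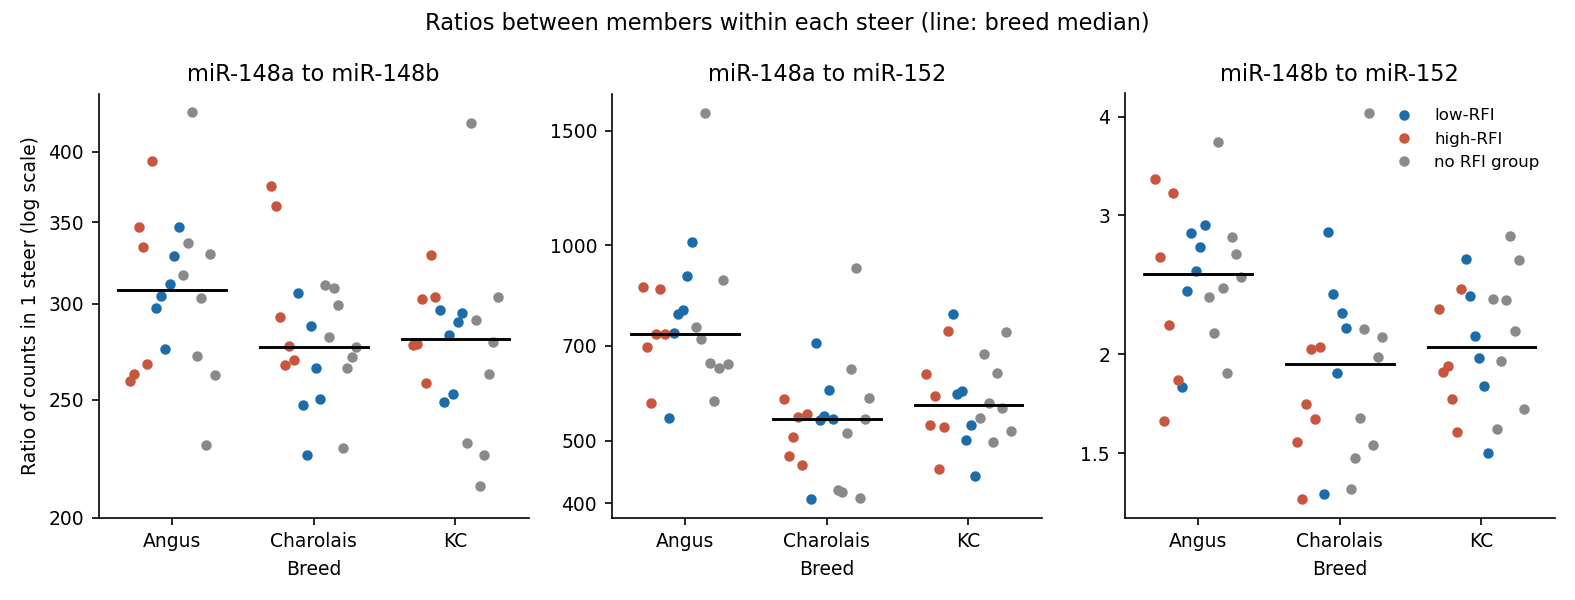
Ratio of the counts of 2 members within each steer (vertical axes, log scale) by breed (horizontal axis), coloured by RFI group, with a black line at the breed median. Ratios to bta-miR-152 are higher in Angus, with medians of 730 and 2.53, than in Charolais (540 and 1.94) and KC (566 and 2.04).

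Steers of the same sire were compared within each breed for sires with at least 2 steers. bta-miR-152 differed between the 5 Charolais sires (F = 8.04, permutation p = 0.00036, adjusted p = 0.00324 over the 9 tests of members and breeds). The other 8 tests did not pass, and their smallest adjusted permutation p was 0.291. The Charolais sire with the lowest mean had 3 steers, at 128, 189 and 194 CPM. The sire with the highest mean had 8 steers, from 238 to 297 CPM with a median of 264. The other 3 sires had means of 212, 245 and 246 CPM. The test had no term for RFI group, from which sire could be separated only in part. The lowest sire had 1 low-RFI and 0 high-RFI steers, and the highest 1 and 4. The other 3, in order of their means, had 2 and 0, 0 and 2, and 2 and 0. The steers of the lowest sire all lay under those of every other Charolais sire, and their mean of 170 CPM was close to the Angus mean of 172 CPM. Leaving out each Charolais steer in turn gave F from 6.58 to 10.4 with adjusted p-values up to 0.0283. On the library share without TMM scaling, F fell to 5.11 and the adjusted permutation p rose to 0.106.

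Sires bear on the breed comparison as well, since steers of 1 sire are not independent. With 1 mean of log2 CPM per sire, bta-miR-152 was 0.40 higher in Charolais than in Angus over 5 against 7 sires (95% interval 0.15 to 0.65, exact permutation p = 0.0126). It was 0.33 higher in KC than in Angus over 10 against 7 sires (95% interval 0.11 to 0.55, exact permutation p = 0.0046). Adjusted over the 9 exact tests of members and breed pairs, these were 0.0568 and 0.0417, so the Charolais difference passed only before adjustment. These sire means, taken on the log2 scale, ran from 153 to 200 CPM in Angus, and 4 of 5 Charolais and 8 of 10 KC sire means lay above them. No test of bta-miR-148a or bta-miR-148b passed after adjustment. For bta-miR-148b in Charolais against Angus the difference of sire means was 0.15 with an exact permutation p of 0.0354, adjusted to 0.106.

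**Figure D4:**
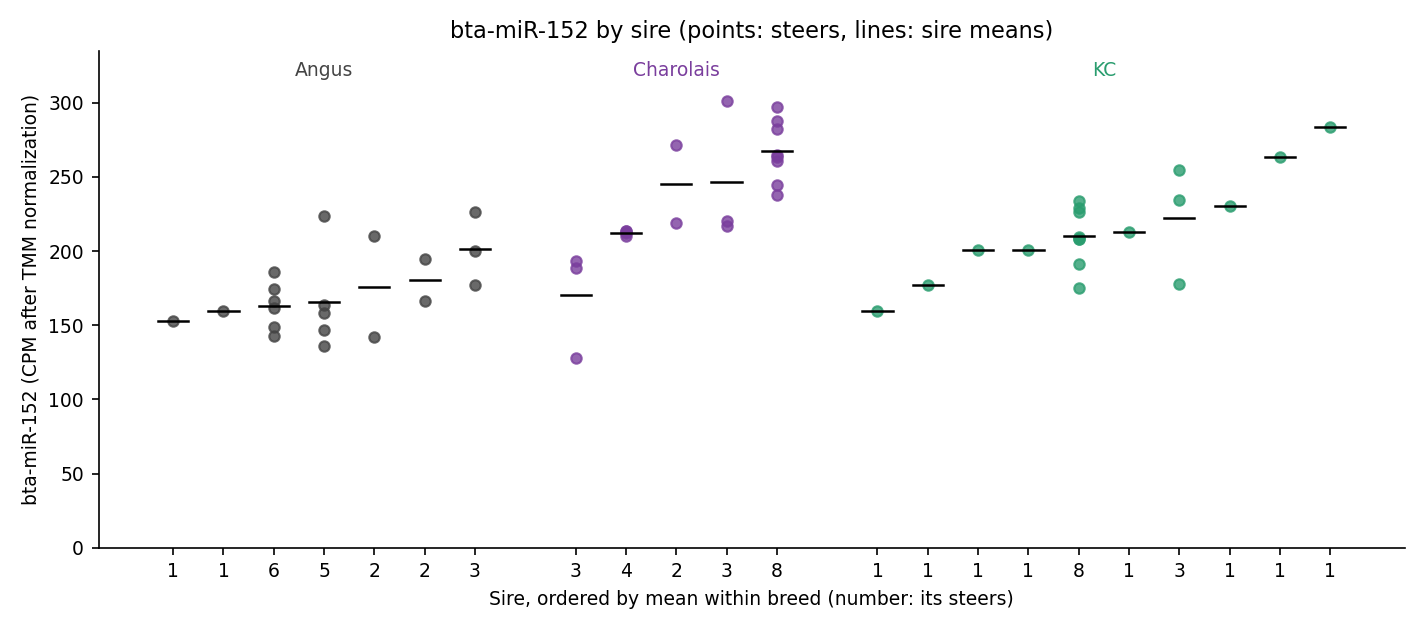
Level of bta-miR-152 in CPM after TMM scaling (vertical axis) in each steer, grouped by sire and ordered by the sire mean within breed (horizontal axis, labelled with the number of steers of each sire), with lines at sire means. The KC steer of unknown sire is left out. Charolais sire means range from 170 to 267 CPM, and the 3 steers of the lowest Charolais sire lie at 128, 189 and 194 CPM, where Angus steers run from 136 to 227 CPM.

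Members were then compared with each other across steers. With breed means removed, the log2 CPM of bta-miR-148b and bta-miR-152 had a Pearson r of -0.33 (permutation p = 0.00989) and a Spearman rho of -0.31 (permutation p = 0.0163) over 60 steers. Without the 2 steers farthest from the median of bta-miR-148b, r was -0.37. None of the 12 correlations passed after adjustment, the smallest adjusted permutation p being 0.072. The direction of this one also depended on scaling, since r was 0.19 on the library share without TMM. bta-miR-148a and bta-miR-148b had r = 0.51 in Angus (permutation p = 0.0165; rho = 0.41, permutation p = 0.0732), which was 0.26 without the 2 farthest steers and -0.28 on the library share. In Charolais, bta-miR-148b and bta-miR-152 had the largest r of a single breed, -0.52 (permutation p = 0.018; rho = -0.42, permutation p = 0.0670), with -0.48 without the 2 farthest steers and 0.070 on the library share, while their r was -0.36 in Angus and -0.04 in KC. For bta-miR-148a and bta-miR-148b, KC had r = -0.49 (permutation p = 0.0306; rho = -0.40, permutation p = 0.0808), and r was -0.36 without the 2 farthest steers. bta-miR-148a and bta-miR-152 had r = 0.02 (permutation p = 0.867; rho = 0.16, permutation p = 0.226) over the 60 steers.

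The miRNAs whose levels were most like each member were ranked by Pearson r of breed-centred log2 CPM over 60 steers among 442 others. These values are a description, since all points share a library and a scaling factor. bta-miR-148a was closest to bta-miR-192 (r = 0.67), a hepatocyte miRNA at a median of 236190 CPM here, then to bta-miR-101 (0.64), bta-miR-151-3p (0.62), bta-miR-98 (0.58) and bta-miR-2285q (0.57). Of these, bta-miR-101 had the most even r, from 0.58 to 0.76 in single breeds and 0.69 on the library share. bta-miR-192 had r = 0.83 in Angus, 0.46 in Charolais and 0.42 in KC, and bta-miR-151-3p 0.86, 0.15 and 0.22. On the library share r was 0.45 for bta-miR-192, under that of bta-miR-101, so its first place depended on scaling. There bta-miR-151-3p had 0.35, bta-miR-98 0.24 and bta-miR-2285q 0.49. bta-miR-148b had no r above 0.41 after TMM scaling. Its highest values were 0.41 for bta-miR-10166-5p, 0.37 for bta-miR-502b, 0.36 for bta-miR-301a, and 0.35 each for bta-miR-183 and bta-miR-193a-3p. Of these, bta-miR-10166-5p lies at a median of 0.528 CPM, near the floor. On the library share the same 5 had r = 0.26, 0.48, 0.57, 0.23 and 0.68 in that order.

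bta-miR-152 was closest to bta-miR-32 (r = 0.56, and 0.61, 0.59 and 0.48 in Angus, Charolais and KC), then to bta-miR-2431-5p (0.51), bta-miR-20a (0.50), the endothelial bta-miR-126-3p (0.39) and bta-miR-2285i (0.39). None of these 5 was called between Angus and either other breed. bta-miR-32, for one, differed by 0.03 and 0.04 on the log2 scale. Of the 5, bta-miR-2431-5p and bta-miR-2285i lie near the floor, at medians of 0.488 and 1.25 CPM. Among KC steers alone bta-miR-2285i had a negative r, -0.13, against 0.67 for Angus and 0.48 for Charolais. Within the family, bta-miR-148b stood at place 98 of 442 in likeness to bta-miR-148a and bta-miR-152 at place 198, so members were not each other's nearest miRNAs.

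Liver tissue holds several cell types, and in whole tissue fewer cells of a type and less RNA per cell cannot be told apart. Marker lists were summed beside the breed difference of bta-miR-152. The leukocyte list had 2 of 7 members higher in KC than in Angus, where 12.4% of all miRNAs were called, and 0 of 7 called in Charolais against Angus, where 1.35% were. Its sum ran from 4093 to 5627 CPM in Angus, from 4661 to 6411 in Charolais and from 4118 to 7411 in KC. Of the hepatocyte list 1 of 4 was higher in KC than in Angus and 0 of 4 were called in Charolais, with sums of 174800 to 354040, 204710 to 297370 and 202070 to 263840 CPM in Angus, Charolais and KC. None of the 6 mesenchymal or stellate, 2 endothelial, 3 erythroid, 2 tested muscle or 5 biliary markers was called in either contrast. Mesenchymal or stellate sums ran from 116240 to 303250, from 135490 to 377190 and from 122870 to 257610 CPM in the same order of breeds. Endothelial sums ran from 14492 to 20607, from 14038 to 19396 and from 13829 to 20831 CPM. The ranges of every list overlapped between breeds. The part of cell composition in the level of bta-miR-152 was not tested.

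Other miRNAs known for roles in hepatic lipid, lipoprotein or cholesterol control were read beside the family, as a list of 22 that were all tested. Between RFI groups 1 of 22 was called in KC and 0 of 22 in Angus and in Charolais, where the shares over all miRNAs were 1.82%, 2.68% and 2.41%. The 1 call was bta-miR-223, a myeloid miRNA also known to act on cholesterol genes, higher in low-RFI KC steers by 0.67 on the log2 scale (SE 0.199) with an adjusted p of 0.566 by edgeR. bta-miR-33a and bta-miR-33b, which lie in the SREBP genes and act on ABCA1 as miR-148a does, were not called. The median log2 fold change of the list was 0.07 for Angus, 0.01 for Charolais and 0.03 for KC, where the medians over all miRNAs were 0.01, -0.0026 and 0.03.

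Between breeds 3 of the 22 were called in the test of any breed, bta-miR-122, bta-miR-128 and bta-miR-370, against 18.1% of all miRNAs. bta-miR-122, the main hepatocyte-specific miRNA, was called in no single contrast, with log2 differences from Angus of 0.29 in Charolais (SE 0.091, adjusted p = 0.0767) and 0.20 in KC (SE 0.091, adjusted p = 0.135) by edgeR. In single contrasts bta-miR-128 was lower than in Angus by -0.33 in Charolais (SE 0.082, adjusted p = 0.0161) and by -0.27 in KC (SE 0.081, adjusted p = 0.0185) by edgeR. bta-miR-370 was lower in KC than in Angus by -0.67 (SE 0.186, adjusted p = 0.0113 by edgeR), and bta-miR-107 by -0.12 (SE 0.040, adjusted p = 0.0475), the latter within 1 mismatch of bta-miR-103 and therefore uncertain. bta-miR-21-5p was lower in KC than in Charolais by -0.21 (SE 0.075, adjusted p = 0.0462 by edgeR). In all, 1 of 22 was called in Charolais against Angus and 3 of 22 in KC against Angus, beside 1.35% and 12.4% of all miRNAs. The median log2 difference of the list was -0.03 in Charolais and 0.05 in KC, where the medians over all miRNAs were -0.01 and 0.0084.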

How the data were processed

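Liver small RNA of 60 steers was analysed. The authors clipped adapters with cutadapt 1.16, removed very short and long reads and reads of other small RNAs, aligned with Bowtie 1.1.1 to UMD3.1, counted known bovine miRNAs with miRDeep2, and deposited raw read counts per mature miRNA and precursor, without normalization. Counts from several precursors were averaged and rounded, and each member has 1 precursor. Totals of 1930859 to 6759381 counts per steer put 3 counts at 0.444 to 1.55 CPM.

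Groups follow the breed and RFI labels. edgeR 4.0.16 (R 4.3.3), by its quasi-likelihood F test with TMM scaling, was fitted to all miRNAs that reached 1 CPM in 6 or more steers, with Benjamini-Hochberg adjustment over all miRNAs tested, and was tested on simulated data. Within breeds a call needed an unadjusted p under 0.05 and a fold change above 1.5, as in the study, and elsewhere an adjusted p under 0.05. Levels, ratios, sires and correlations were tested by two-sided permutation (the F over sires one-sided), exact for 6 against 6 steers and for sire means and otherwise with 100000 resamples, using log2 CPM (prior count 0.5), in Python 3.11.15 with scipy 1.17.1. P-values measure the spread between steers of 1 ranch herd.

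Alternatives were DESeq2 1.42.0, other scalings, filters, tests and ways of joining precursors, thinned counts, sire as a block, subsets of steers and leaving out each steer. Sire means, the left-out Charolais steers in the sire test and the fits without 2 libraries were chosen after seeing the data. Named are the members, the 5 nearest miRNAs of each, the lipid list and the marker lists. The members and lists were chosen with earlier results of these data known. Predicted miRNAs were not analysed here.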

Additional observations from a re-analysis of the deposited data

Results flagged for a closer look

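Within groups of 6 or 8 steers of a breed and RFI group, 9 of 54 sets of member levels or ratios had a steer whose gap to its nearest neighbour passed Dixon's 95% value. Chance flags about 1 in 20 such sets, and sets of the same steers are not independent. In Angus steers without an RFI group, steer 3 had 218120 CPM of bta-miR-148a with the next at 154230 CPM, and a bta-miR-148a to bta-miR-152 ratio of 1600 with the next at 883. This is the library with the lowest scaling factor, 0.677, and the ratio does not depend on that factor. In Angus high-RFI steers, 1 steer had 145900 CPM of bta-miR-148a against 129880 CPM for the next, and in Angus low-RFI steers 1 had 210 CPM of bta-miR-152 against 166 CPM.

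Among Charolais low-RFI steers, 1 had 282 CPM of bta-miR-152 with the next at 220 CPM. Of the Charolais steers without an RFI group, 1 had 136080 CPM of bta-miR-148a with the next at 124750 CPM. Another, with the lowest bta-miR-152 level of all 60 steers, had a bta-miR-148a to bta-miR-152 ratio of 922 with the next at 644 and a bta-miR-148b to bta-miR-152 ratio of 4.04 with the next at 2.16. Of the KC steers without an RFI group, 1 had a bta-miR-148a to bta-miR-148b ratio of 422 with the next at 304.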

How the results depend on the processing

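The call of bta-miR-152 between breeds held under scaling, test, filter, thinning and 36-steer alternatives and without 2 libraries. It was lost in the 24 steers without an RFI group, where 0 members were called, the adjusted p for any breed was 0.107 and the log2 fold changes from Angus were 0.47 for Charolais and 0.23 for KC. With 1 mean per sire the Charolais difference, 0.40, was no longer called, and bta-miR-148a in KC minus Charolais turned to 0.0114. No member was called between RFI groups under any setting, but directions near 0 turned. bta-miR-148a in Angus was -0.0090 with no filter, -0.0017 with at least 10 counts in every steer, -0.0053 with precursors summed and -0.0081 in 1 fit of 36 steers. bta-miR-148b in KC was -0.0018 with DESeq2 size factors, -0.0020 with DESeq2, -0.0028 with precursors summed and -0.0088 in 1 fit of 36 steers, and bta-miR-152 in KC was 0.0037 with library totals alone. With sire as a block bta-miR-152 was 0.0732 for Angus, 0.188 for Charolais and 0.100 for KC, bta-miR-148b in Charolais -0.12 and bta-miR-148a in Angus 0.245. With library totals alone bta-miR-148b in KC minus Charolais was 0.0086. The cause was not tested.

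Leaving out each steer in turn, bta-miR-148a ranged from -0.0792 to 0.0636 in Angus, -0.10 to -0.03 in Charolais and -0.10 to -0.04 in KC, bta-miR-148b from -0.0813 to 0.0322, 0.08 to 0.23 and -0.0284 to 0.0311, and bta-miR-152 from -0.20 to -0.03, -0.19 to -0.11 and -0.15 to 0.0421, with no member called. Counts of all miRNAs called ranged over settings from 1 to 19 in Angus against 10 as reported, from 2 to 42 in Charolais against 9 (42 with sire as a block), from 2 to 15 in KC against 7, from 0 to 1 across breeds, from 0 to 1 for the interaction and from 20 to 90 for any breed against 80.

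On the library share, differences of low minus high turned to 0.0219 for bta-miR-148a and 0.0065 for bta-miR-148b in Angus and 0.0490 for bta-miR-148b in KC. The sire test of bta-miR-152 in Charolais fell to F = 5.11, leaving 0 of 9 tests passing. Correlations of bta-miR-148a with bta-miR-148b turned to -0.28 in Angus, 0.59 in Charolais and 0.24 in KC, and those of bta-miR-148b with bta-miR-152 to 0.28, 0.0697 and 0.32, and 0.19 over 60 steers. No paired analysis was possible because the labels give no replicate numbers that link steers of different groups; the sires that some steers of both RFI groups share were used as a block instead. Each member had at least 299 counts in every steer, and thinning all libraries to the lowest total changed no breed call of a member.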
